A study of Homo sapiens with 5 samples.

Results

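The MYC library was made from LM2 cells, a highly metastatic line derived from MDA-MB-231 breast cancer cells, by chromatin immunoprecipitation and sequencing (ChIP-Seq) with an antibody against c-Myc. Its members are all peaks of the MYC list on chromosomes 1 to 22 and X, which are 4857 of the 59069 peaks in the 3 lists used here. The study also mapped Fra-1 and E2F1 in the same cells, and those lists serve only as background. Each factor had 1 library, and all were compared with 1 input library of the same cells, so that no value below has a replicate spread. Cells of every library were crosslinked with 1% formaldehyde for 15 min, 5 μg of antibody was used in each ChIP but none for the input, and the labels name no treatment or genetic change. A supplementary legend of the paper names a control vector or a short hairpin RNA in LM2 cells used for ChIP-Seq. The labels do not say which applies here. A peak list holds no expression values, so the identity of the cell line could not be checked against its markers.

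MYC is a transcription factor of the basic helix-loop-helix leucine zipper family that binds DNA as a dimer with its partner MAX. The dimer prefers the hexamer CACGTG, called the E-box, and binds related hexamers more weakly. MYC is best known for raising the output of ribosomes, nucleotides and energy in growing cells, and it is found at very many active promoters in cancer cells.

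The strength of a peak is given as fold enrichment, the ratio of the pileup at the summit to the local background taken from the input. Pileup is the depth of fragments, scaled down here because MYC was the larger library, so it is not a count of fragments. MYC had 23853621 tags after duplicates were removed and the input 10758036. Duplicates were 12.9% of the 27377480 MYC tags but 53.7% of the 23219275 input tags, and this input is the background of every fold enrichment. Median fold enrichment of the MYC peaks was 6.67, with a range from 2.996 to 30.2. Pileup ran from 5 to 59 with a median of 11, and median width was 167 bp. Intervals in parentheses are 95% Wilson intervals of a share, and they cover counting error within this library only.

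The DNA under the strongest peaks shows the E-box that some of them share and others lack. Capitals mark the E-box, 5 related hexamers and the AP-1 motif, each read on both strands. The related forms searched were CACGCG and CACGAG. The hexamers CATGTG, then CATGCG, and lastly the form CACGTT were searched as well. The AP-1 motif was TGACTCA, which reads as its reverse complement on the other strand. For promoters whose summit lies over an annotated exon, the 30 bases around the E-box nearest the summit are given, and elsewhere the summit with 50 bp to each side. Letters are from GRCh37 (hg19), 5′ to 3′.
The first group are promoters with an E-box near the summit, at DDX42 (chr17:61851197-61851226, plus strand), G6PC3 (chr17:42148038-42148067, plus strand), FKBP10 (chr17:39969140-39969169, plus strand), SNHG15 (chr7:45026136-45026165, plus strand) and IFRD2 (chr3:50329464-50329493, minus strand).
DDX42: gctgtgtgggacCACGTGgccagaggcaag
G6PC3: tgcaacagtggcCACGTGgggccctgagga
FKBP10: cagcccccattcCACGTGgaccagccaggg
SNHG15: atggtcaggcaaCACGTGgggcccaggatg
IFRD2: gcagtcattggcCACGTGcgtgcccaactt
The second is a strong promoter peak with none of these motifs, at KLF16 (chr19:1864272-1864372, minus strand).
KLF16: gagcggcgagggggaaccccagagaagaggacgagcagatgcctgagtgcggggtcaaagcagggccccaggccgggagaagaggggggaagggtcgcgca
The third group are peaks outside promoters, all on the plus strand, near RHBDF2 (chr17:74502587-74502687), NUMBL (chr19:41168832-41168932) and CCND1 (chr11:69451360-69451460), inside TNFRSF1A (chr12:6445379-6445479), and near SEPTIN9-DT (chr17:75251638-75251738), where an AP-1 motif and CACGAG are present and CACGTG is not.
RHBDF2: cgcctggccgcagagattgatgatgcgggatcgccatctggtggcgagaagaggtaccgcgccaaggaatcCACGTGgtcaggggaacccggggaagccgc
NUMBL: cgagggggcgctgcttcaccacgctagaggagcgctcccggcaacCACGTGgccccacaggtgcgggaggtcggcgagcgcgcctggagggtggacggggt
CCND1: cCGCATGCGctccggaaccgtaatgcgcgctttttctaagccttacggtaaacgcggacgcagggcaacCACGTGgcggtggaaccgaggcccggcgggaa
TNFRSF1A: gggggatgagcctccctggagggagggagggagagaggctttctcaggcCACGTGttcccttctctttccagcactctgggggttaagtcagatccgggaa
SEPTIN9-DT: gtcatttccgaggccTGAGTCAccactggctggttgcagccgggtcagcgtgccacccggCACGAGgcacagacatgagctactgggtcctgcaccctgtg

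A promoter was a window from 2 kb upstream to 2.5 kb downstream of any annotated transcription start site (TSS), and 4162 MYC peaks (85.7%, 84.7 to 86.6%) overlapped one. The 15 strongest of these, by fold enrichment, included genes of the ribosome, of translation and of RNA handling. The first was a 619-bp peak between DDX42, which encodes an RNA helicase, and CCDC47, with a fold enrichment of 30.2, a pileup of 48 and its summit at -17 bp from the DDX42 TSS, where a minus sign is upstream. Next came G6PC3, which encodes a glucose-6-phosphatase subunit, at 28.5-fold with a pileup of 55 and the summit at -1 bp. Genes of the large ribosomal subunit followed, RPL5 at 28.2-fold and RPL29 at 26.5-fold, with summits 85 bp and 9 bp downstream. PPAN, a factor that assembles the large subunit, had 25.7-fold and its summit 10 bp downstream, and YARS1, which charges the tRNA for tyrosine, had 25.5-fold at 3 bp.
Genes of transcription and RNA made up a further part of the 15. KLF16, a zinc-finger transcription factor, had a peak of 25.8-fold with the summit at -744 bp. TFAP4, a helix-loop-helix factor that itself binds E-boxes, had 24.8-fold with the summit 1473 bp downstream of the TSS, inside the gene. The non-coding hosts of small nucleolar RNAs SNHG15 and SNHG16 had 24.6-fold and 22.9-fold, and NCBP2, a subunit of the nuclear cap-binding complex, had 22.4-fold. The remaining peaks lay at FKBP10, which encodes a prolyl isomerase of collagen folding (24.8-fold), CCDC86 (24.7-fold), IFRD2 (23.8-fold) and C15orf39 (22.4-fold, summit at -1124 bp). All 15 overlapped an E2F1 peak and 5 a Fra-1 peak, against 97.5% and 14.8% of all promoter peaks. Of the 15, 10 were also among the first 15 by −log10 q and 6 among the first 15 by pileup, so the order depends on the measure. Inside promoters 26 of 4162 peaks reached 20-fold (0.625%, 0.427 to 0.914%), and outside them 0 of 695 did, with intervals that overlap. A count of 0 is given here with the limit of 3 counts, which is 0.432%, and the upper end of its Wilson interval is 0.550%.

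MYC promoter summits were centred on the start site, at a median distance without sign of 107 bp. The median signed distance from the nearest TSS was 2 bp, with quartiles at -85 bp and 128 bp. Of the promoter summits, 896 (21.5%) lay within 25 bp of a TSS, 2005 (48.2%, 46.7 to 49.7%) within 100 bp and 3888 (93.4%) within 1000 bp. Downstream of the TSS lay 51.5% (49.9 to 53.0%) and upstream 47.8% (46.3 to 49.3%), a small difference. Both are shares of the same summits, so their intervals cannot be compared as separate groups, and the downstream interval includes an equal split. Far from the TSS the sides were unequal, since 419 summits (10.1%, 9.19 to 11.0%) lay 500 bp or more downstream and 263 (6.32%, 5.62 to 7.10%) as far upstream.
The annotation has 220349 start sites, and a summit near any of them counted here. When each protein-coding gene was given its canonical TSS alone, 3496 peaks had a start site in reach. Their median position was -1 bp and their median distance without sign 227 bp. Within 100 bp lay 30.4% (28.9 to 32.0%), so the centre stayed and the spread grew. Downstream lay 49.7% (48.0 to 51.3%) and upstream 50.2% (48.5 to 51.8%), so the small excess downstream was not kept. E2F1 promoter summits, measured over the same start sites, had a median distance without sign of 162 bp, against 107 bp for MYC. Strength changed little with position. Median fold enrichment was 7.02 in the 50 bp upstream of the TSS, 6.83 in the 50 bp downstream, and 6.53 from 500 to 1000 bp downstream. Among the 100 strongest promoter peaks, however, 71 summits (71.0%, 61.5 to 79.0%) lay within 100 bp of a TSS. In the lowest quintile of all peaks by fold enrichment, 45.8% (42.4 to 49.3%) of promoter summits did.

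**Figure D1:**
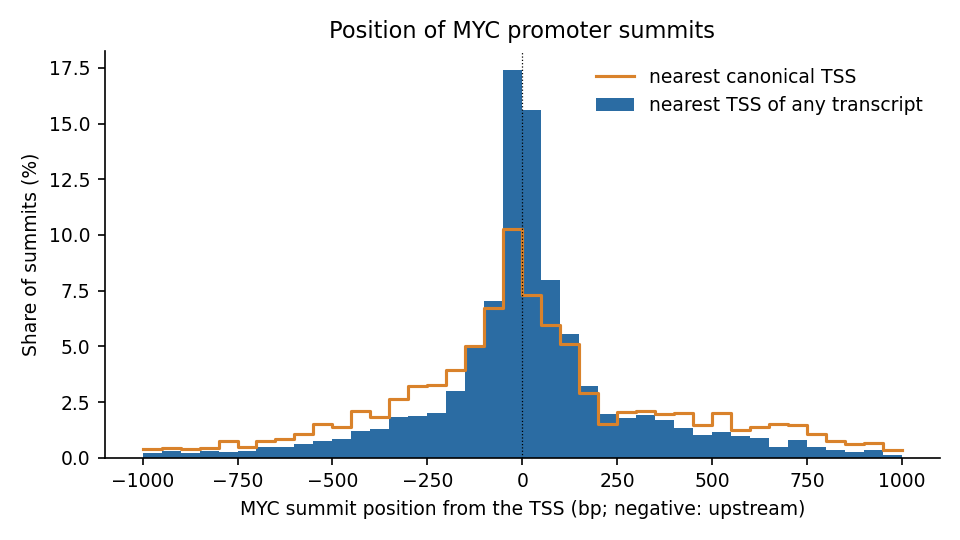
Share of MYC promoter summits (vertical axis, %) in 50-bp bins of distance from the TSS (horizontal axis, bp, negative upstream), to the nearest TSS of any transcript (bars) and to the nearest canonical TSS of a protein-coding gene (line). Both peak in the bin just upstream of the TSS, at 17.4% and 10.3%, and the line is wider.

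The E-box marked a minority of MYC summits, and its share rose with peak strength. Within 50 bp of the summit CACGTG was found at 672 of 4162 promoter summits (16.1%, 15.1 to 17.3%). In windows 2 kb to lower coordinates of the MYC summits it was found in 1.42%, at the canonical TSS of protein-coding genes in 3.29%, and at E2F1 promoter summits without a MYC peak in 2.04% (1.86 to 2.23%). MYC promoter summits had a median GC content of 64.4% and those E2F1 summits 61.4%. The reversed hexamer GTGCAC, of equal base composition, lay at 3.20% of MYC promoter summits and 1.93% of the E2F1 summits.
In quintiles of fold enrichment over all peaks, the share with CACGTG was 12.3%, 9.99%, 13.6% and 17.8% from the lowest upwards, and 30.5% (27.6 to 33.4%) in the highest. Of the 100 strongest promoter peaks 41 carried it. Promoter peaks with a single CACGTG had a median fold enrichment of 7.65, the 39 with 2 or more had 10.0, and those with none of the 6 forms had 6.59. Another form without CACGTG was present at 26.0% of promoter summits, against 13.3% of the E2F1 summits, and these peaks had a median of 7.00. Peaks with CACGCG and no CACGTG had 7.25 and those with CATGTG and no CACGTG 6.81. Within promoters 2406 peaks held none of the 6 forms, RPL5 at 28.2-fold among them.
Only E-boxes within 50 bp of the summit were counted, and the nearest was taken, so some closeness follows from the search. Inside this span E-box centres were more frequent towards the summit. In the 10 bp on its 2 sides lay 111 and 106, and from 30 to 40 bp away 77 and 61. The centre was within 20 bp of the summit in 436 of 818 cases (53.3%, 49.9 to 56.7%), with a median distance of 19.0 bp. The base before CACGTG, counted on both strands, was C in 42.8% (40.2 to 45.4%) of promoter cases and T in 14.1% (12.4 to 16.0%), as at DDX42 and G6PC3 above. At the E2F1 summits without MYC it was C in 28.3% (25.4 to 31.3%) and T in 34.9% (31.8 to 38.04%). The E-box was more frequent upstream of the TSS, at 17.6% (15.8 to 19.4%) of summits less than 500 bp upstream, than less than 500 bp downstream, at 13.6% (12.1 to 15.3%).
Letters bound by other factor families were also counted. The ETS core CCGGAA was found at 13.3% of MYC promoter summits and 7.35% of the E2F1 summits, but also at 12.2% of canonical start sites. The GC box GGGCGG lay at 22.03% of MYC promoter summits and at 35.5% of canonical start sites. The NRF1 site GCATGCGC, which contains the E-box form CATGCG, lay at 1.35%, and CCAAT at 10.19%, close to its 11.2% in the windows at lower coordinates.

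**Figure D2:**
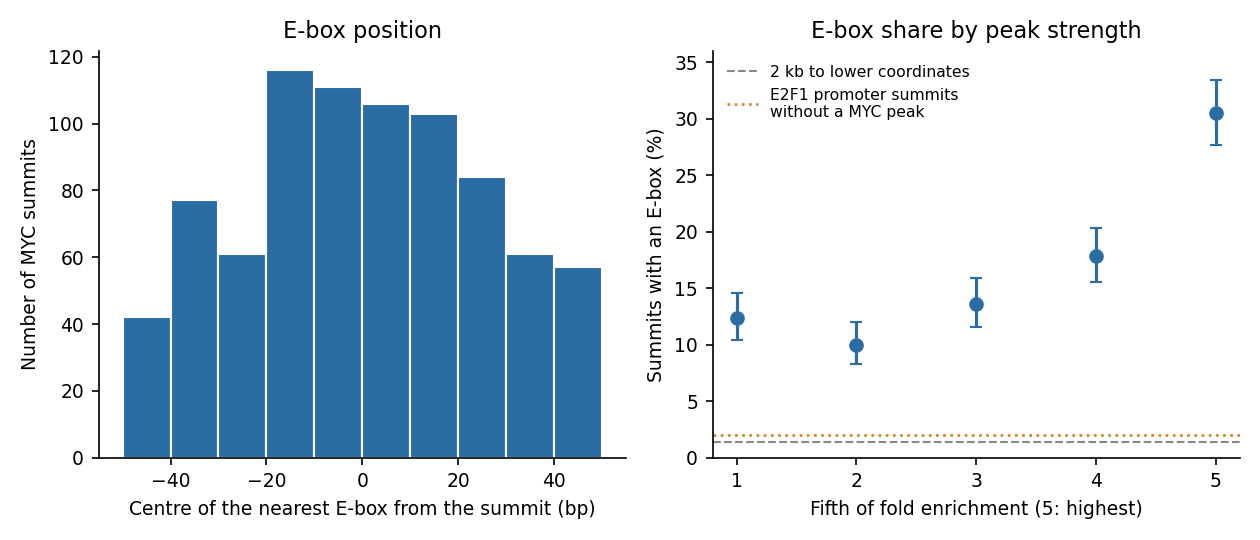
Left, number of MYC summits (vertical axis) by the position of the centre of the nearest E-box CACGTG (horizontal axis, bp from the summit, 10-bp bins), for the 818 summits with one within 50 bp. Right, share of MYC summits with an E-box (%, points with 95% Wilson intervals) in quintiles of fold enrichment (1 lowest, 5 highest), beside windows 2 kb away (dashed, 1.42%) and E2F1 promoter summits without a MYC peak (dotted, 2.04%), with the highest quintile at 30.5% above all others.

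A gene was called bound when a MYC peak overlapped a promoter window of any of its TSS. By this rule 3587 of 20098 protein-coding genes were bound, the background of 17.8% against which each list below is read, and a fold enrichment of 10 or more was reached by 2.93%. Among lncRNA genes 5.56% were bound. A gene with more annotated start sites has more windows, and the median number was 8 for bound and 5 for unbound protein-coding genes. It was 1 for olfactory receptor, keratin-associated protein and replication-dependent histone genes, and 2 for HOX genes. With the canonical TSS alone 3192 protein-coding genes were bound, among them 80 cytosolic ribosomal protein genes and 3 integrin, laminin and collagen genes. A peak can lie in the windows of neighbouring genes, and 989 promoter peaks lay in windows of 2 or more protein-coding genes. For 1434 bound genes (40.0%) every MYC peak was also in another gene's window. Of the 78 genes that are among the 3 strongest of a list below, 26 had their strongest peak also in the window of another protein-coding gene. Genes with a divergent protein-coding partner within 1 kb were bound in 770 of 1885 cases (40.8%, 38.7 to 43.1%), and the others in 15.5% (14.9 to 16.0%). The share of bound genes ran from 5.87% on chromosome X and 7.14% on chromosome 18 to 25.2% on chromosome 19 and 27.3% on chromosome 17.

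Cytosolic ribosome and nucleolus genes had the highest bound shares of the lists. Of 87 genes for cytosolic ribosomal proteins 80 were bound (92.0%, 84.3 to 96.05%), with a median of the largest fold enrichment per gene of 10.6, against 7.22 over all bound protein-coding genes. Quartiles in this list were 8.39 and 14.2, and 46 of the 87 genes reached 10-fold. After RPL5 and RPL29 the strongest was RPL10A at 22.4-fold. Nucleolar factors of ribosome biogenesis were bound in 96 of 120 cases (80.0%, 72.0 to 86.2%) with a median of 9.70, led by PPAN, then GNL3 (22.1), a nucleolar GTPase also known as nucleostemin, and NOP14 (19.5), which helps to build the small subunit. Of the small nucleolar RNA host genes, whose introns hold the guides of rRNA modification, 23 of 32 were bound, to be read against the 5.56% of lncRNA genes, with a median of 10.6, and after SNHG15 and SNHG16 came SNHG1 at 21.0-fold. For mitochondrial ribosomal proteins the count was 36 of 82 (43.9%, 33.7 to 54.7%) with a median of 7.49, led by MRPL3 (18.0), MRPL20 (16.5) and MRPL45 (13.7). Thus the bound share of the mitochondrial set was below that of the cytosolic set, and their intervals did not overlap.

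Genes of translation and of RNA synthesis, processing and transport were bound in over 50% of cases in each list. Initiation and elongation factors were bound in 49 of 73 cases (67.1%, 55.7 to 76.8%), led by EIF3D (20.1), EIF5A (14.7) and the elongation factor EEF2 (13.9). Aminoacyl-tRNA synthetases and their partners were bound in 25 of 41 cases (61.0%), with AIMP2 (16.9) and FARSB (15.5) after YARS1. RNA polymerase subunits were bound in 20 of 33 cases (60.6%), with POLR1G (12.7), POLR1C (12.5) and POLR2I (11.4) in front. These peaks also lay in the windows of PPP1R13L, YIPF3 and TBCB, and the YARS1 and AIMP2 peaks in those of S100PBP and PMS2. Any of the 6 lists of ribosome, translation and polymerase genes was present at 38 of the 100 strongest promoter peaks, against 10.6% of all promoter peaks. DDX and DHX helicases were bound in 29 of 53 cases (54.7%), with DDX21 (19.4) and DDX54 (14.2) after DDX42. Splicing factors were bound in 46 of 91 cases (50.5%), led by HNRNPAB (19.0), SF3B3 (14.9) and SRSF7 (14.6). Nuclear pore and transport genes were bound in 40 of 62 cases (64.5%), led by the importin gene IPO4 (21.5), then TNPO2 (14.8) and RANBP2 (14.6). Every peak was also in another gene's window for 11 of the 20 bound polymerase genes and 12 of the 25 bound synthetases. The same held for 20 of 46 splicing, 18 of 49 translation, 10 of 29 helicase and 8 of 40 pore and transport genes. Over all bound genes it was 40.0%.

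Metabolic genes were bound above the background of 17.8%, with shares that differed between routes. Nucleotide synthesis had 28 of 50 genes bound (56.0%, 42.3 to 68.8%), led by NME1 (18.9), NME2 (14.3) and CTPS1 (13.1), the last of which makes CTP. Glycolysis and lactate had 15 of 26 (57.7%), led by ENO1 (16.9), HK2 (12.3) and PFKFB3 (12.1), which act at enolase, hexokinase and the control of phosphofructokinase. Polyamine synthesis had 6 of 15 (40.0%, 19.8 to 64.3%), with EIF5A, whose protein carries a polyamine-derived residue, ODC1 (10.3), the rate-limiting enzyme, and SRM (7.98). Mitochondrial protein import had 19 of 35 (54.3%), led by TOMM70 (12.5), TOMM34 (11.1) and PAM16 (9.95). The nuclear-encoded respiratory chain had 34 of 104 (32.7%, 24.4 to 42.2%), led by NDUFV3 (17.5), ATP5MK (15.6) and ATP5MC2 (13.5). For 19 of these 34 every peak was also in another gene's window, against 40.0% of all bound genes. The NDUFV3 and ATP5MK peaks also lay in the windows of WDR4 and PDCD11. Chaperones had 36 of 86 (41.9%), led by HSP90AB1 (17.9), CCT6B (15.3) and HSPA9 (13.1), and proteasome genes 19 of 48 (39.6%), led by PSME3 (21.3), PSMD9 (14.8) and PSMC4 (14.0). The CCT6B peak also lay in the window of LIG3, and the PSME3 and PSMD9 peaks each in that of another protein-coding gene. Only shared peaks were found for 22 of the 36 bound chaperones, but for 6 of the 19 proteasome, 5 of the 19 import and 3 of the 15 glycolysis genes.

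Cell-cycle genes were bound often but weakly. DNA replication genes were bound in 23 of 52 cases (44.2%, 31.6 to 57.7%) with a median of 6.14, and 1 gene, POLE3 (14.6), reached 10-fold. TOPBP1 (9.05) and TIPIN (8.84) came next. Cyclins and cell-cycle kinases were bound in 19 of 48 cases (39.6%) with a median of 6.63, led by CCND3 (9.62), CDK12 (9.34) and AURKB (8.99), and none of the 48 reached 10-fold. E2F1 promoter peaks were found at all 52 DNA replication genes and at 45 of the 48 cyclin and kinase genes, against 61.3% of protein-coding genes. Such shares were not particular to the cell cycle, with 118 of the 120 nucleolar factors and 84 of the 87 cytosolic ribosomal protein genes. They were lower for replication-dependent histones (59.4%) and HOX genes (25.6%).
Other lists stood near or under the background. Lysosome and autophagy genes were bound in 11 of 57 cases (19.3%, 11.1 to 31.3%), although 55 had an E2F1 promoter peak. BECN1, an autophagy gene, led them at 21.3-fold, but its peak was the one counted above for its neighbour PSME3. ATP6V1D (11.6), whose peak also lay in the window of EIF2S1, and SQSTM1 (11.26) followed. Circadian clock genes were bound in 6 of 25 cases (24%, 11.5 to 43.4%), led by NR1D1 (12.4), CSNK1D (9.30) and DBP (9.21). Zinc finger genes of the ZNF series were bound in 84 of 508 cases (16.5%, 13.6 to 20.01%), led by ZNF460 (17.6), ZNF202 (15.6) and ZNF485 (14.8). Integrins, laminins and collagens were bound in 7 of 82 cases (8.54%, 4.20 to 16.6%), led by LAMB2 (6.36), ITGB2 (5.76) and COL9A3 (5.67). Of 39 HOX genes 1 was bound (HOXB9, 8.43), and of 64 replication-dependent histone genes 1 (H4C8, 6.75). No peak lay at 414 olfactory receptor genes, where the limit of 3 counts is 0.725% and the Wilson interval ends at 0.919%. None lay at 94 keratin-associated protein genes either, where these values are 3.19% and 3.93%. These genes are best known from the olfactory epithelium and the hair follicle, and 1 and 10 of them had an E2F1 promoter peak.

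**Figure D3:**
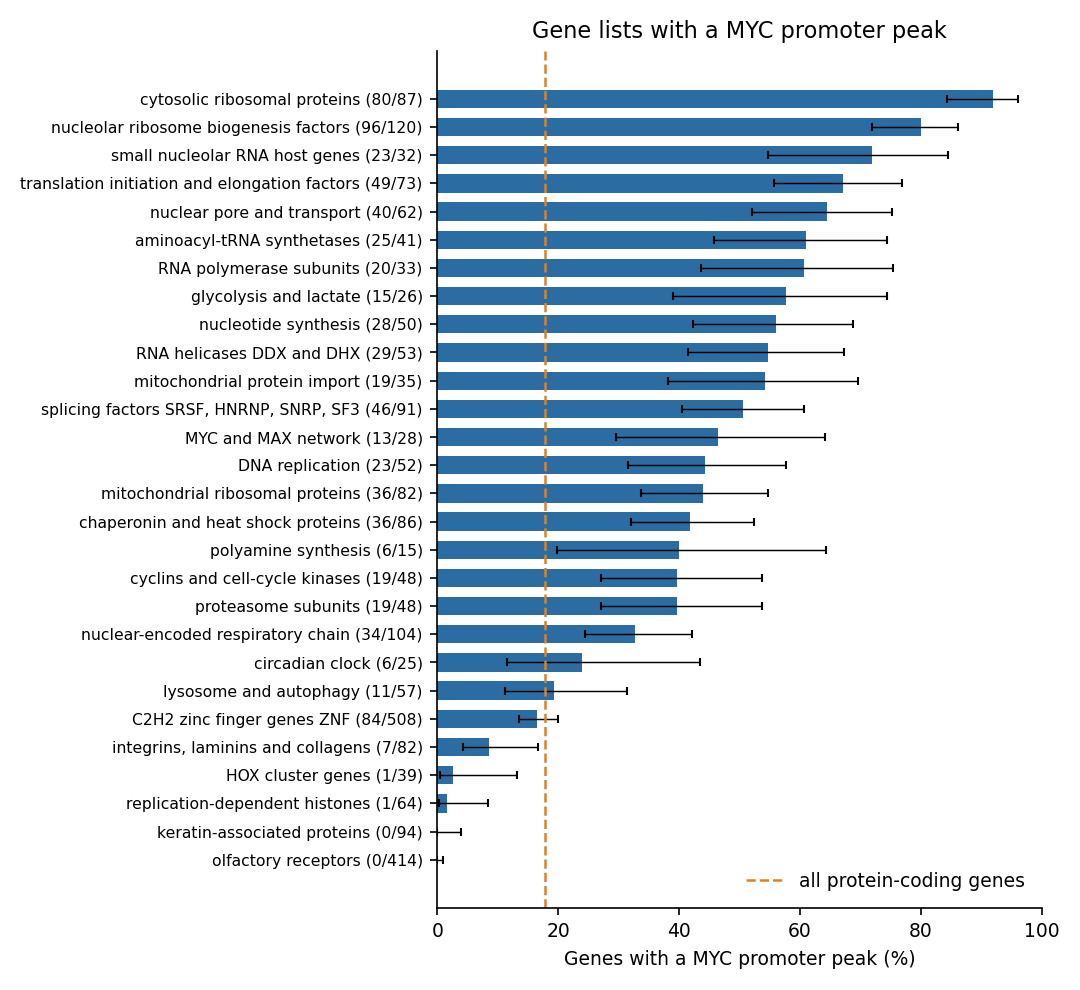
Share of genes with a MYC promoter peak (horizontal axis, %) in 28 lists, as bars with 95% Wilson intervals and with bound and total genes in parentheses. The dashed line marks 17.8%, the share over all protein-coding genes (for small nucleolar RNA host genes, lncRNAs are the comparison, at 5.56%), and bars run from 92.0% for cytosolic ribosomal proteins to 0% for olfactory receptors.

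Ribosomal protein promoters and nucleolar factor promoters differed in the DNA under their peaks, whose median fold enrichments were 10.6 and 9.70. At the strongest peak of each bound gene, CACGTG was found within 50 bp of the summit at 3 of 80 ribosomal protein genes (3.75%, 1.28 to 10.5%) and at 32 of 96 nucleolar factors (33.3%, 24.7 to 43.2%), against 18.3% (17.03 to 19.6%) of all bound genes. None of the 6 forms was present at 76.3% (65.9 to 84.2%) of the ribosomal protein promoters and at 45.8% (36.2 to 55.8%) of the nucleolar ones. CCGGAA also differed, at 16.3% (9.75 to 25.8%) and 36.5% (27.5 to 46.4%). Position did not set them apart, since the strongest summit was within 100 bp of a TSS for 78.8% and 72.9% of genes. The peaks of ribosomal protein genes were wide, with a median of 450 bp against 311 bp for the nucleolar factors. Translation factors had CACGTG in 5 of 49 cases (4.44 to 21.8%) and splicing factors in 6.52% (2.24 to 17.5%), while nucleotide synthesis genes had it in 28.6% and glycolysis genes in 33.3% (15.2 to 58.3%) of only 15 bound genes.

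**Figure D4:**
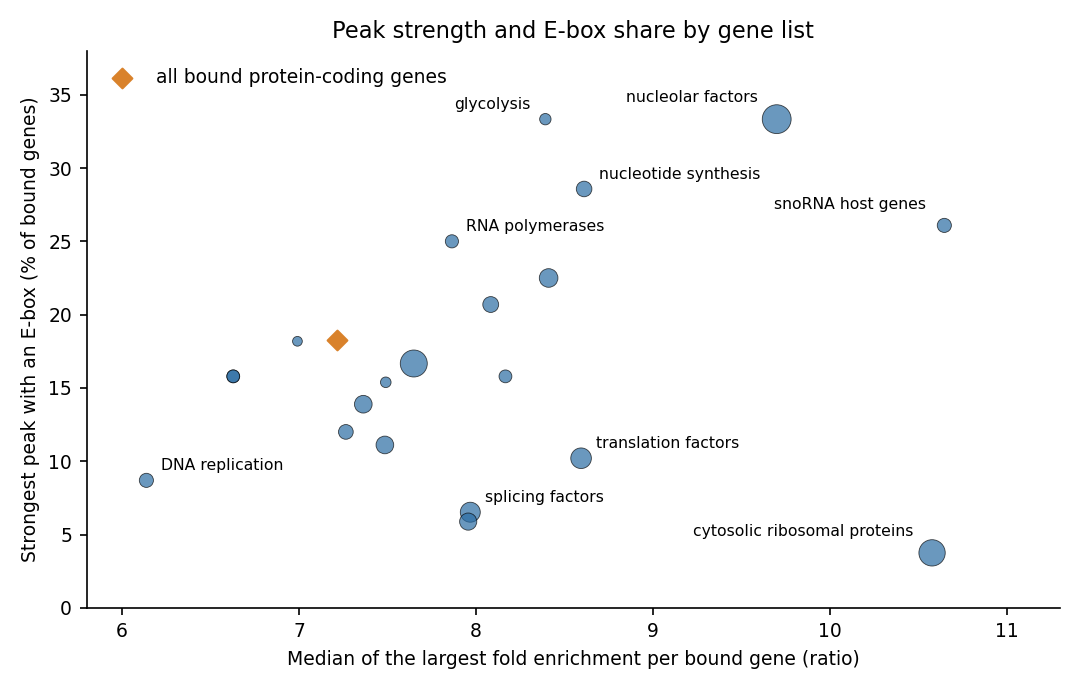
Each circle is a gene list with 10 or more bound genes, by the median over its bound genes of the largest fold enrichment (horizontal axis, ratio) and the share of those genes whose strongest MYC summit has an E-box within 50 bp (vertical axis, %), with circle area proportional to the number of bound genes and the diamond for all bound protein-coding genes. Cytosolic ribosomal proteins lie at 10.6 and 3.75%, and nucleolar factors at 9.70 and 33.3%.

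The MYC and MAX network was covered in part. Of 28 genes 13 were bound (46.4%, 29.5 to 64.2%). TFAP4 had 4 peaks, of 24.8, 11.6, 8.08 and 5.24-fold. MNT, a MAX partner that opposes MYC, had 6 peaks from 5.73 to 12.2-fold, none with CACGTG at the summit. MAX itself had peaks of 8.22 and 8.17-fold with summits at -58 and -279 bp, the first with an E-box. Other MAX or MLX partners bound were MXD1 (8.79), MXD3 (7.49, with 2 weaker peaks), MXI1 (7.47 and 5.10), MLX (7.61 and 6.28) and MLXIP (7.45). The last was the only peak in this list without an overlapping E2F1 peak. Cofactors bound were RUVBL1 (9.65), RUVBL2 (6.59), WDR5 (7.02), KAT5 (5.67) and the kinase AURKA (5.32). No peak lay in a promoter window of MYC, MYCN, MYCL, MXD4, MGA or MLXIPL, nor of EP400, TRRAP, FBXW7, SKP2, HEXIM1, USF1, USF2 or ZBTB17.
Within the nine-gene set of the study 3 genes were bound. PAICS, an enzyme of purine synthesis, had peaks of 11.4-fold at -345 bp and 6.65-fold at 52 bp from its TSS. The adenosine receptor gene ADORA2B had 8.67-fold at 169 bp downstream, and SFN, which encodes 14-3-3 sigma, had 5.53-fold at 1821 bp downstream. ABHD11, E2F1, EZH2, IGFBP3, PTP4A1 and SH3GL1 had none. The paper reports coordinated promoter binding of its factors, MYC among them, for this set. Its window was also 2 kb upstream to 2.5 kb downstream, but the MYC list used here gave the 3 genes above. The reason for the difference was not tested. In the signature of 31 genes 14 were bound (45.2%, 29.2 to 62.2%), led by SEC14L1 (19.1), PAICS and the survivin gene BIRC5 (10.3). The SEC14L1 peak also lay in the window of the non-coding SNHG20, and the stronger PAICS peak in that of PPAT, another gene of purine synthesis. The study chose the signature for dependence on Fra-1 in MDA-MB-231 and LM2 cells and for outcome in patients, and the nine-gene set from it by their effects in LM2 cells, so these counts are not independent evidence.

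Many bound promoters held more than 1 MYC peak. Of the 3587 bound protein-coding genes 1029 (28.7%, 27.2 to 30.2%) had 2 or more and 259 (7.22%) 3 or more. The largest fold enrichment per gene rose along this order, with medians of 6.76, 8.17 and 8.82 for genes with 1, 2 or more, and 3 or more peaks. A gene with more peaks has more chances of a high value. Neighbouring peaks were often close, and when peaks within 1 kb of each other were merged, 247 genes kept 2 or more.
In the windows of canonical start sites 655 genes had exactly 2 peaks. Their summits were 451 bp apart in the median, with quartiles of 304 and 703 bp. A summit on each side of the TSS was found in 42.3% (38.6 to 46.1%), both upstream in 31.5% and both downstream in 26.3%. The stronger peak was the nearer to the TSS in 393 of 647 untied pairs (60.7%, 56.9 to 64.4%), and was 1.31 times as strong as the other in the median. CACGTG lay at both summits in 12 pairs (1.83%) and at 1 or both in 27.0%.
The most peaks were counted at PLEC on chromosome 8, which encodes the cytoskeletal linker plectin. Its 13 promoter peaks spread over 14 start sites between 145011427 and 145026811, with fold enrichments from 4.56 to 13.1, and none had CACGTG. SBNO2 had 8 peaks, the strongest of 13.3-fold at -17 bp from a TSS. The septin gene SEPTIN9 had 7 over 46 annotated start sites, none in the window of its canonical TSS. With 6 peaks each came MNT, SLC1A5, which encodes a glutamine transporter (strongest 13.9-fold, 3 bp downstream of a TSS), the phosphatidylserine synthase gene PTDSS2 (10.9), the histone demethylase gene KDM6B (11.2) and the transporter gene SLCO4A1 (7.78). Genes with 4 or more peaks had a median of 10 annotated start sites and genes with 1 peak 8.

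Peaks away from promoters were 695 (14.3%, 13.4 to 15.3%), weaker at the top of their range. Median fold enrichment was 6.36, against 6.79 in promoters, and 5.61% (4.13 to 7.58%) reached 10-fold against 11.9% (10.9 to 12.9%). By their summit, 360 (51.8%) lay in introns, 283 (40.7%) between genes and 52 (7.48%) in exons. The median distance to a TSS was 8265 bp, and 290 (41.7%) lay more than 10 kb away. The strongest, in an intron of TPCN2, an endolysosomal channel gene, had 17.3-fold. Next were peaks at -4765 bp from RHBDF2 (16.2), which encodes an inactive rhomboid protein, 19878 bp from the TSS of NUMBL and past its end (15.6), and in an intron of the TNF receptor gene TNFRSF1A (14.9). SEPTIN9-DT (14.6, 2783 bp from its TSS), an intron of RALGPS1 (14.2), RIN1 (14.1), a RAS effector gene, and the cyclin D1 gene CCND1 (13.6, -4514 bp) completed the first 8. Of these 8 summits 5 had CACGTG within 50 bp. Among host genes of distal peaks GNG7 held 6, and PLEC and TTC3 held 5 each.
G and C made up a median of 60.4% of the distal windows, and the ratio of observed to expected CpG was 0.396, against 0.785 in promoters. CACGTG was found at 146 distal summits (21.0%, 18.1 to 24.2%), above the 16.1% (15.1 to 17.3%) of promoter summits, and CATGTG at 19.1% (16.4 to 22.2%) against 6.15% (5.46 to 6.92%). Distal peaks with CACGTG were the stronger, with medians of 7.11 and 6.33.

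Overlap with Fra-1, a subunit of the AP-1 dimer, divided the distal peaks by motif. A Fra-1 peak overlapped 423 of 695 by at least 1 bp, and when each peak had to cover 50% of the other the share was 34.4%. This overlap was not particular to Fra-1, since an E2F1 peak overlapped 611 of the 695 (87.9%). Of the 423 peaks with a Fra-1 peak, 408 also overlapped an E2F1 peak. With a Fra-1 peak, the AP-1 motif was found at 127 of 423 MYC summits (30.02%, 25.9 to 34.6%) and CACGTG at 59 (13.9%, 11.0 to 17.6%). Without one, the AP-1 motif was found at 9 of 272 (3.31%, 1.75 to 6.17%) and CACGTG at 87 (32.0%, 26.7 to 37.7%). Of the 69 distal peaks that overlapped neither a Fra-1 nor an E2F1 peak, 30 had CACGTG (43.5%, 32.4 to 55.2%). Both motifs were present at 21 distal summits and neither at 434. Fold enrichment hardly differed, with medians of 6.47 with a Fra-1 peak and 6.33 without. In promoters the AP-1 motif followed the Fra-1 peaks as well, at 138 of 615 (22.4%, 19.3 to 25.9%) and 22 of 3547 summits (0.620%, 0.410 to 0.937%). CACGTG did not, at 14.6% (12.1 to 17.6%) and 16.4% (15.2 to 17.7%). All libraries shared 1 input, and the part of open chromatin in these overlaps was not tested.
An E2F1 peak was absent at 187 MYC peaks (3.85%), of which 103 were in promoters. CACGTG lay at 61 of the 187 summits (32.6%, 26.3 to 39.6%), above the 16.8% of all MYC summits. The strongest were the peak near RIN1, an intronic peak of GSN, which encodes the actin-severing protein gelsolin (12.3-fold), and a peak upstream of INTS1, an Integrator subunit gene (10.3), which had 2 E-boxes.

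**Figure D5:**
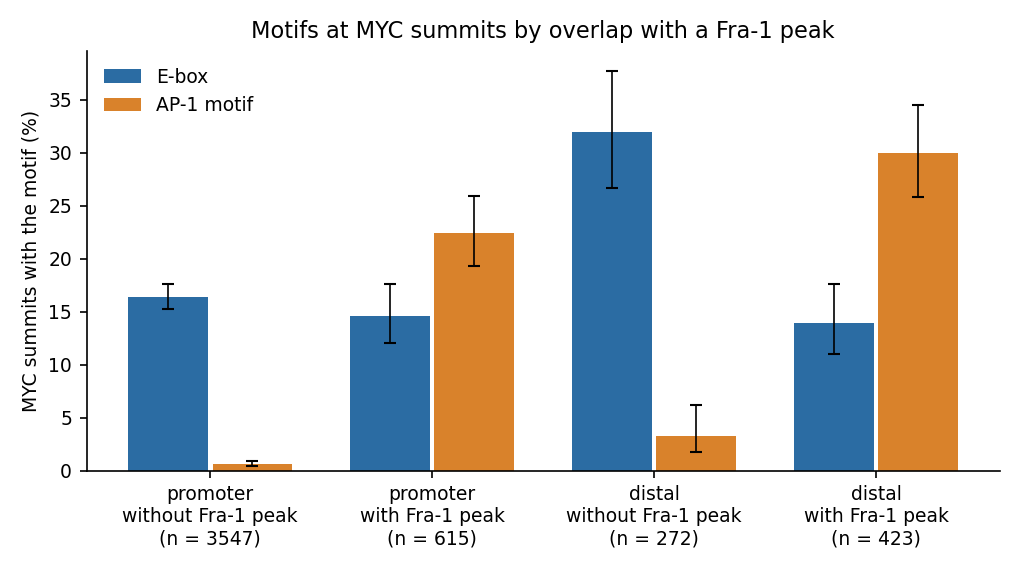
Share of MYC summits with an E-box CACGTG or an AP-1 motif within 50 bp (vertical axis, %, bars with 95% Wilson intervals) for promoter and distal peaks with and without an overlapping Fra-1 peak. Among distal peaks the E-box falls from 32.0% without to 13.9% with a Fra-1 peak, while the AP-1 motif rises from 3.31% to 30.02%.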

How the data were processed

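Per the labels, the submitters' processing notes name Trimmomatic 0.27, Bowtie 0.12.5 and MACS2, and the paper's methods describe unique alignment to masked hg19. The authors called peaks with MACS2 2.0.10.20120913, with the input as control, a q-value limit of 0.01 and at most 1 tag kept per position. The deposited signal is the summit pileup, in whole numbers, and the header states scaling of the larger library. The deposited fold enrichment is a ratio to local background with a pseudocount of 1, and the deposited p- and q-values are −log10. The input had fewer tags than the MYC library after duplicates were removed, and 1 library per factor allows no test between samples.

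Peaks were joined by at least 1 bp to GENCODE 44 start sites mapped to GRCh37, the build of hg19. Motif searches covered 50 bp to each side of a summit and read both strands. Python 3.11.15, numpy 2.4.6, pandas 2.3.3, pysam 0.24.0, statsmodels 0.14.6 and matplotlib 3.10.9 were used. Steps were tested on simulated data, and all 500 planted cases in each of 6 steps were recovered. Members and gene lists were chosen with earlier results of these data known. Named were genes at the 15 strongest promoter and 8 strongest distal peaks, the 8 genes with most promoter peaks (ties by summed fold enrichment), the 3 strongest members of each list, the nine-gene set in full, and the MYC and MAX network but for 1 gene. GNG7, TTC3, GSN and INTS1 were chosen after their values were seen. A factor of the study, that gene and a sequence chosen for display are not reported here, and the sequences shown are a selection.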

Additional observations from a re-analysis of the deposited data

Results flagged for a closer look

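The MYC list also held 10 peaks on sequences other than chromosomes 1 to 22 and X, which were in none of the comparisons and were flagged because they are signal outside the main measurement. Of these, 8 lay on the unplaced sequence chrUn_gl000220, with fold enrichments from 2.10 to 8.17 and pileups from 13.0 to 41.0. The other two lay on an alternative form of a chromosome 6 region, with a fold enrichment of 14.9, and on chrUn_gl000224, with 4.08. No annotation of these sequences was used here.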

How the results depend on the processing

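Of 38 alternatives, 14 stayed inside the interval of the reported value, or within 1.5 times of a count, and 24 moved further. The promoter share of 85.7% became 80.8% with 1 kb to either side of a TSS, 80.5% with start sites of protein-coding genes, 72.0% with canonical TSS, 86.8% for −log10 q of at least 5 and 90.2% for fold enrichment of at least 8. The median position of 2 bp became -1 bp with canonical TSS and 7 bp with peak midpoints, and the downstream share of 51.5% became 49.7%, 53.6% with midpoints and 49.5% at the stricter q. Genes with 2 or more peaks fell from 1029 to 247 after merging and to 495 at the stricter q. The E-box share of 16.8% became 23.7% within 100 bp, 13.4% at midpoints and 20.7% at the stricter q. The Fra-1 overlap of distal peaks, 60.9%, became 34.4% when each peak had to cover 50% of the other, 64.5% beyond 10 kb and 64.8% at the stricter q. By pileup 6 of the 15 strongest promoters were kept. The cause was not tested.

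Of these alternatives, 10 were chosen after seeing the data. Within 100 bp, distal E-box shares were 21.04% with and 40.8% without a Fra-1 peak, and at the stricter q 18.3% and 41.96%. Within 100 bp, ribosomal protein and nucleolar promoters had 10% and 42.7%. No paired analysis was possible because each factor had 1 library.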
